A study of Mus musculus with 8 samples.

Results

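The mature miRNAs mmu-miR-21, mmu-miR-146a, mmu-miR-221 and mmu-miR-222, known from reactive, inflamed or dividing cells and written without the species prefix from here on, were followed through 6 pooled samples of mouse retina. They were taken by name and are 4 of the 599 miRNA probes of the nCounter panel, of which 566 are for mouse miRNAs. The set was chosen by role and by the counts in these same samples, which were already known, so the levels are given as a description, and no test was run on them. All samples came from Rlbp-Cre:tdTomato mice, in which a tamoxifen-inducible Cre under Rlbp1 removes a floxed stop before tdTomato. The study asked which miRNAs Müller glia (MG), the main glia of the retina, hold in the tissue and what changes once they are grown in a dish.

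MG 14 days in vitro (14 DIV) and 8 days in vitro (8 DIV) were parts of a split culture of pooled P11 retinas (20 retinas by the labels), grown with 10% serum and 100 ng/mL epidermal growth factor and passaged at 6 DIV. For both, the age field of the labels gives the other culture time, and the titles and sample names were followed. Adult MG and adult neurons were the tdTomato+ and the tdTomato- fraction of 40 sorted retinas, after 75 mg/kg tamoxifen on consecutive days beyond P21. P11 MG and P11 neurons were the same fractions of 32 retinas, after tamoxifen at P9 and P10. The titles of these fresh samples, and the paper for the cultures, give the age as P11 or the day after. This age is shortened to P11 throughout. Rlbp1 also drives Cre in pigmented and ciliary epithelium, which had been dissected away. The tdTomato- fraction holds every unlabelled retinal cell, most of them rods, and is called neurons here as in the study. The labels give the condition of the cultured samples as cultured and that of the others as sorted, while the extraction note speaks of 2 independent primary cultures. Each condition is 1 pool with no replicate, so no difference between conditions has an error between animals, and the intervals below cover counting error only. In such bulk RNA, more cells holding a miRNA and more of it per cell cannot be told apart.

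A mature miRNA guides the silencing complex to mRNAs, mainly through its seed, bases 2 to 8 from the 5′ end. miR-21 is induced by growth and injury signals in many cell types and lowers, among others, the tumour suppressor Pdcd4. miR-146a is induced by NF-kB and lowers Irak1 and Traf6, so that it acts as a brake on inflammatory signalling. miR-221 and miR-222 are made from the same primary transcript and lower the cell cycle inhibitor p27 (Cdkn1b) and the receptor Kit.

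The sequences show which of these miRNAs share a seed and so could be read together; the seed is in capitals and the rest in lower case, as RefSeq gives the mature strands on GRCm38.p6. The strand was assigned through the miRBase accession of each probe, since the panel uses the older names without an arm.
miR-21: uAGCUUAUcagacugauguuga
miR-146a: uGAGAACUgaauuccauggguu
miR-146b: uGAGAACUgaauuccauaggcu
miR-221: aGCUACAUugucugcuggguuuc
miR-222: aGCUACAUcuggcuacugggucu
Both miR-221 and miR-222 start with the same 8 bases and carry 1 seed, while over their 23 positions 11 are identical. miR-146a has the seed of miR-146b, a paralog that is not among the 4, and is identical to it at 20 of 22 positions. miR-21 shares its seed with none of the others. The panel held 1 further probe with the seed of miR-221 and miR-222, miR-1928, with 26 to 65 raw counts and above background in 0 of 6 samples.

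On GRCm38.p6 the mature miR-21 lies at chr11:86584120-86584141 on the minus strand, in a hairpin (Mir21a) that overlaps the protein-coding gene Vmp1. The mature miR-146a lies at chr11:43374435-43374456 on the minus strand, where RefSeq lists no other gene over the hairpin (Mir146). The mature miR-221 and miR-222 lie at chrX:19146307-19146329 and chrX:19146901-19146923, also on the minus strand, and 504 bases separate their hairpins. miR-146b lies on another chromosome, at chr19:46342790-46342811.

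The raw miRNA counts of a sample summed to between 275042 in P11 neurons and 696712 in adult MG. Per sample, the 8 negative controls set the background (their mean and 2 SD on top of it), which lay between 52.8 counts in 14 DIV MG and 106 counts in P11 MG. Of the 33 viral miRNA probes on the panel, which have no target in these cells, 0 to 2 exceeded it in a sample. For a normalized count, the average negative control was subtracted and the rest multiplied by a factor that brings the sum of the housekeeping mRNAs Actb, B2m, Gapdh and Rpl19 to that of adult MG. Of 7 MG marker miRNAs, which had been picked on these samples, 7 were above background in every MG sample, cultured or fresh, and 6 in each neuron sample. The summed raw counts of these 7 were 127399 in 14 DIV MG and 148200 in 8 DIV MG, against 443856 in adult MG and 241288 in P11 MG. They were 11349 in adult neurons and 30627 in P11 neurons. Of 4 miRNAs of neurons and photoreceptors 3 were also above background in each MG sample. Their summed raw counts were 1036 in 14 DIV MG, 1592 in 8 DIV MG, 1889 in adult MG and 2487 in P11 MG, against 168154 in adult neurons and 67213 in P11 neurons.

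**Figure D1:**
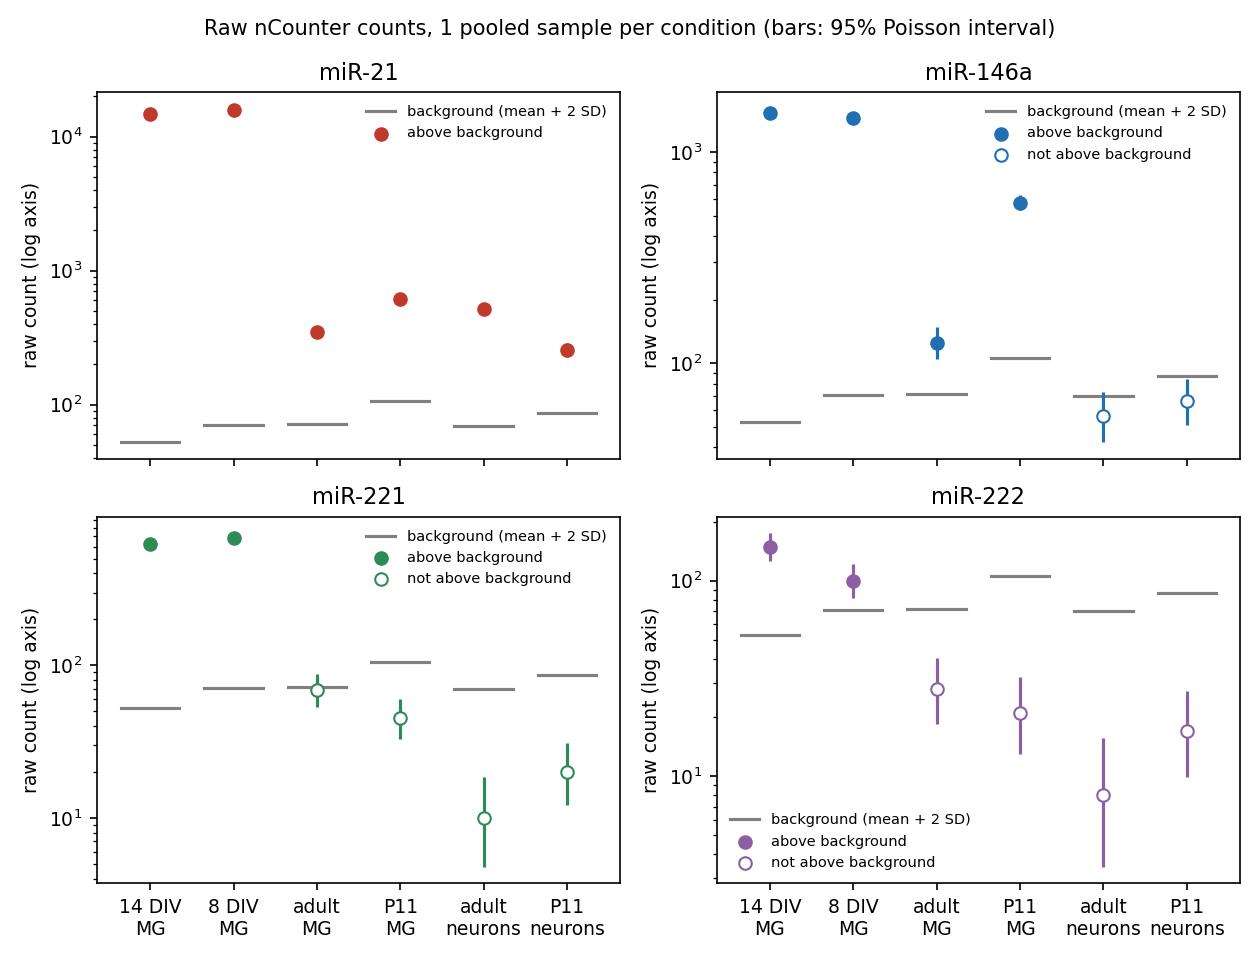
Raw nCounter counts (log axis) of the 4 miRNAs in the 6 pooled samples; bars are 95% Poisson intervals, grey lines each sample's background, and open circles counts not above it. miR-21 was above background in 6 of 6 samples and miR-146a in 4, and miR-221 and miR-222 were above it in the 2 cultured samples.

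Of the 24 values of the 4 miRNAs in the 6 samples, 14 were above background. In each culture 4 of 4 were detected. In adult MG and P11 MG 2 of 4 were, miR-21 and miR-146a, and in adult and P11 neurons miR-21 was the single one. Of all 566 mouse probes 32.2% were above background in 14 DIV MG and 32.9% in 8 DIV MG. The share was 30.2% in adult MG, 26.3% in P11 MG, 25.1% in adult neurons and 22.8% in P11 neurons. Closest to the limit from below was miR-221 in adult MG, with 69 counts against a background of 71.7. Closest from above was miR-222 in 8 DIV MG, with 100 counts against 70.7. By this background, detection separated cultured from fresh samples for miR-221 and miR-222, and not for miR-21 or miR-146a, as the plot of raw counts shows. For miR-221 this depends on the limit, since its 69 counts in adult MG exceeded the highest negative control there, 62.

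miR-21 was high in both cultures and low in each fresh fraction. It had 14782 raw counts in 14 DIV MG, 15886 in 8 DIV MG, 349 in adult MG, 613 in P11 MG, 520 in adult neurons and 256 in P11 neurons. The cultured values lay far above all 4 fresh ones, which stayed between 2.94 and 7.44 times their background. As a share of all miRNA counts, which needs no scaling, miR-21 took 3.77% in 14 DIV MG (exact 95% interval 3.71 to 3.83) and 3.58% in 8 DIV MG (3.53 to 3.64). In P11 MG it took 0.126% (0.116 to 0.137) and in adult MG 0.0501% (0.0450 to 0.0556). By raw count it was the seventh of the 566 mouse probes in 14 DIV MG and the eighth in 8 DIV MG, against place 63 in adult MG and 48 in P11 MG, though probes may differ in how well they capture their target.

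After scaling, miR-21 stood at 7228 normalized counts in 14 DIV MG against 414 in P11 MG, 17.4-fold higher in culture (counting interval 15.8 to 19.4). In 8 DIV MG it had 8454 counts, 20.4-fold higher than in P11 MG (18.4 to 22.6). A ratio counted as higher or lower when it was at least 2-fold, with a value at background set to it. Of the 196 mouse probes above background in 8 DIV MG or P11 MG, 12.8% were at least 2-fold higher in 8 DIV MG by this rule, and of the 202 for 14 DIV MG 13.4%. Where a value was at background the ratio is a bound, ranked here at its value. In this order miR-21 had the highest ratio of all 196 at 8 DIV and the fifth highest of 202 at 14 DIV. The first place at 8 DIV is not settled, since miR-199a-3p, at background in P11 MG, was at least 19.3-fold higher.

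Against adult MG the distance was larger. With 7228 normalized counts in 14 DIV MG against 310 in adult MG, miR-21 was 23.3-fold higher in the culture (20.4 to 26.7), where 10.9% of 211 probes were at least 2-fold higher. The size depends on the scaling, since the housekeeping mRNAs themselves differed: B2m, a part of the MHC class I complex that interferon induces, had 2934 raw counts in 14 DIV MG, 7308 in 8 DIV MG, 375 in adult MG and 629 in P11 MG. Over 10 scalings the fold of miR-21 ran from 5.22 to 37.0 in 14 DIV MG and from 2.24 to 42.6 in 8 DIV MG over P11 MG, with the lowest in each case from B2m alone. It was 5.50 to 84.9 for 14 DIV MG over adult MG. miR-21 was thus at least 2-fold higher in culture under each of these scalings. Set against the median of all probes tested, which no scaling moves, its log2 ratio was 4.96 higher for 14 DIV MG and 4.81 higher for 8 DIV MG over P11 MG.

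**Figure D2:**
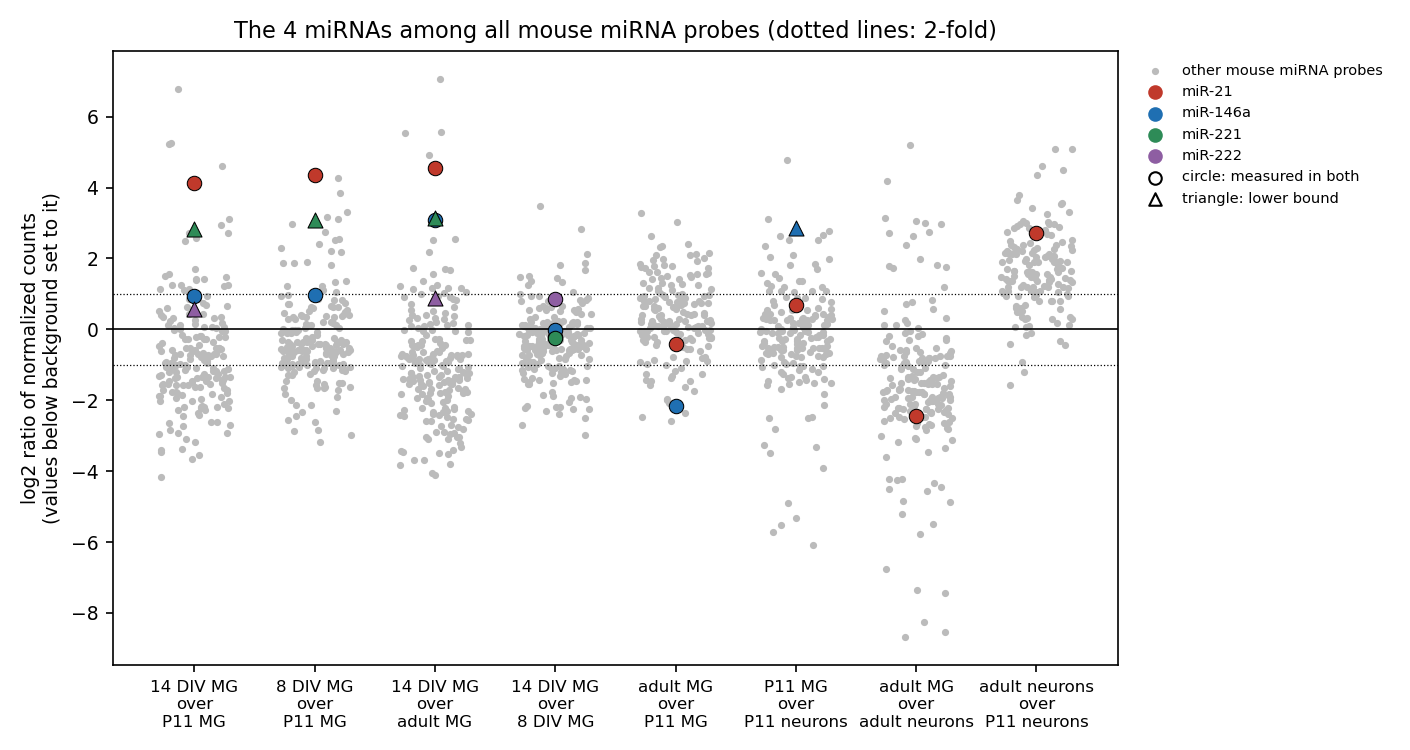
Log2 ratios of normalized counts (y axis) for 8 pairs of samples (x axis), with each mouse probe above background in either sample as a grey point (bounds included) and the 4 miRNAs in colour; triangles are lower bounds, and bounds under 1 are left out for the 4. miR-21 stands near the top in the 3 pairs of a culture over fresh MG, at 4.12, 4.35 and 4.54, while miR-146a is among the lowest for adult MG over P11 MG, at -2.16.

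Between the cultures miR-21 changed little, with 7228 normalized counts in 14 DIV MG and 8454 in 8 DIV MG, a ratio of 0.855 (0.828 to 0.883). The interval excludes equal counts, but the direction depends on the scaling, from 0.452 with Actb alone to 2.33 with B2m alone. Among 208 probes miR-21 was 0.10 above the median log2 ratio, near the middle of all probes.

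In fresh cells miR-21 was low and its order between the fractions was not the same at both ages. Its normalized count was 310 in adult MG against 1691 in adult neurons, so that it was 5.45-fold lower in adult MG (4.41 to 6.74). This size rests on the scaling: over 9 scalings the ratio lay between 0.0904 and 0.955, and with the positive controls, the ligation controls, Gapdh alone or no scaling it was less than 2-fold lower. At P11 it had 414 counts in MG and 256 in neurons, 1.62-fold higher in P11 MG (1.28 to 2.05), though with the ligation controls this ratio was 0.683 and so below 1. Much of the adult difference is shared by other probes: 51.8% of 199 were at least 2-fold lower in adult MG than in adult neurons (8.04% higher), and 73.7% of 156 were at least 2-fold higher in adult neurons than in P11 neurons. Actb had 7024 raw counts in adult MG against 1025 in adult neurons, and at P11 it had 9301 in MG against 4431 in neurons, and the neurons carried housekeeping factors of 3.46 (adult) and 1.20 (P11).

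Relative to the median of all probes the log2 ratio of miR-21 was -0.78 for adult MG over adult neurons and 0.84 for P11 MG over P11 neurons. In neurons miR-21 was 6.60-fold higher in the adult than at P11 (5.19 to 8.43), and the fold lay between 0.956 with the ligation controls and 10.1 with Actb alone. The 3 red blood cell miRNAs, miR-451, miR-144 and miR-486, were also at least 2-fold higher in adult than in P11 neurons, as were 73.7% of 156 probes. Above background were 3 of 3 in adult neurons and 1 in P11 neurons, against 25.1% and 22.8% of all mouse probes. The summed raw counts of the 3 were 1846 and 484, and their part in the result was not tested. In MG miR-21 had 310 counts in the adult and 414 at P11, a ratio of 0.749 (0.608 to 0.920), below 1 under all 10 scalings (0.376 to 0.949).

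miR-146a, the brake on NF-kB signalling, was above background in MG and not in neurons. It had 1527 raw counts in 14 DIV MG, 1444 in 8 DIV MG, 125 in adult MG and 576 in P11 MG, against 56 in adult neurons and 66 in P11 neurons. The 4 MG samples were above background and both neuron samples below it. Adult MG, with 1.74 times its background, was the lowest of the MG samples, and its interval (104 to 149) does not overlap that of P11 MG (530 to 625).

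Between adult and P11 MG miR-146a showed the clearest difference among the 4. Its normalized count was 86.4 in adult MG against 387 in P11 MG, 4.48-fold lower in the adult (3.20 to 6.47). Of 179 probes 11.2% were at least 2-fold lower in adult MG, and miR-146a was 176th when ordered from the highest ratio, bounds included. Under the 10 scalings its ratio of adult to P11 MG stayed between 0.112 and 0.283. P11 MG had at least 7.24 times the count of P11 neurons, where 17% of 171 probes were at least 2-fold higher in P11 MG, and over the 9 scalings that gave a value this bound lay between 3.06 and 18.6. For adult MG over adult neurons no fold can be given with the housekeeping scaling, since the background of the neurons, once scaled, was above the adult MG value. The highest bound over the 9 scalings was 3.41-fold.

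In culture miR-146a was higher than in fresh MG, by far less than miR-21. At 736 normalized counts in 14 DIV MG against 387 in P11 MG it was 1.90-fold higher (1.65 to 2.19), and with 751 in 8 DIV MG it was 1.94-fold higher (1.68 to 2.24). Neither reached the 2-fold rule. The direction turned with B2m alone, which gave 0.569 for 14 DIV MG and 0.213 for 8 DIV MG, while the other scalings gave up to 4.03 and 4.05. In 14 DIV MG it was 8.52-fold above adult MG (6.34 to 11.8), at least 2-fold under each scaling (2.01 to 31.1). Between the cultures the ratio of 14 DIV to 8 DIV MG was 0.980 (0.883 to 1.09) with the housekeeping sum, and 0.518 to 2.67 over the 10 scalings, so that no order can be given.

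The ratio of miR-21 to miR-146a within a sample shows this without any scaling. It was 9.82 (9.18 to 10.5) in 14 DIV MG, 11.3 (10.5 to 12.1) in 8 DIV MG, 3.59 (2.49 to 5.33) in adult MG and 1.07 (0.896 to 1.28) in P11 MG. In other words, the fold of miR-21 over P11 MG was 9.17 times that of miR-146a in 14 DIV MG and 10.5 times in 8 DIV MG. The capture of each probe cancels in these last values.

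**Figure D3:**
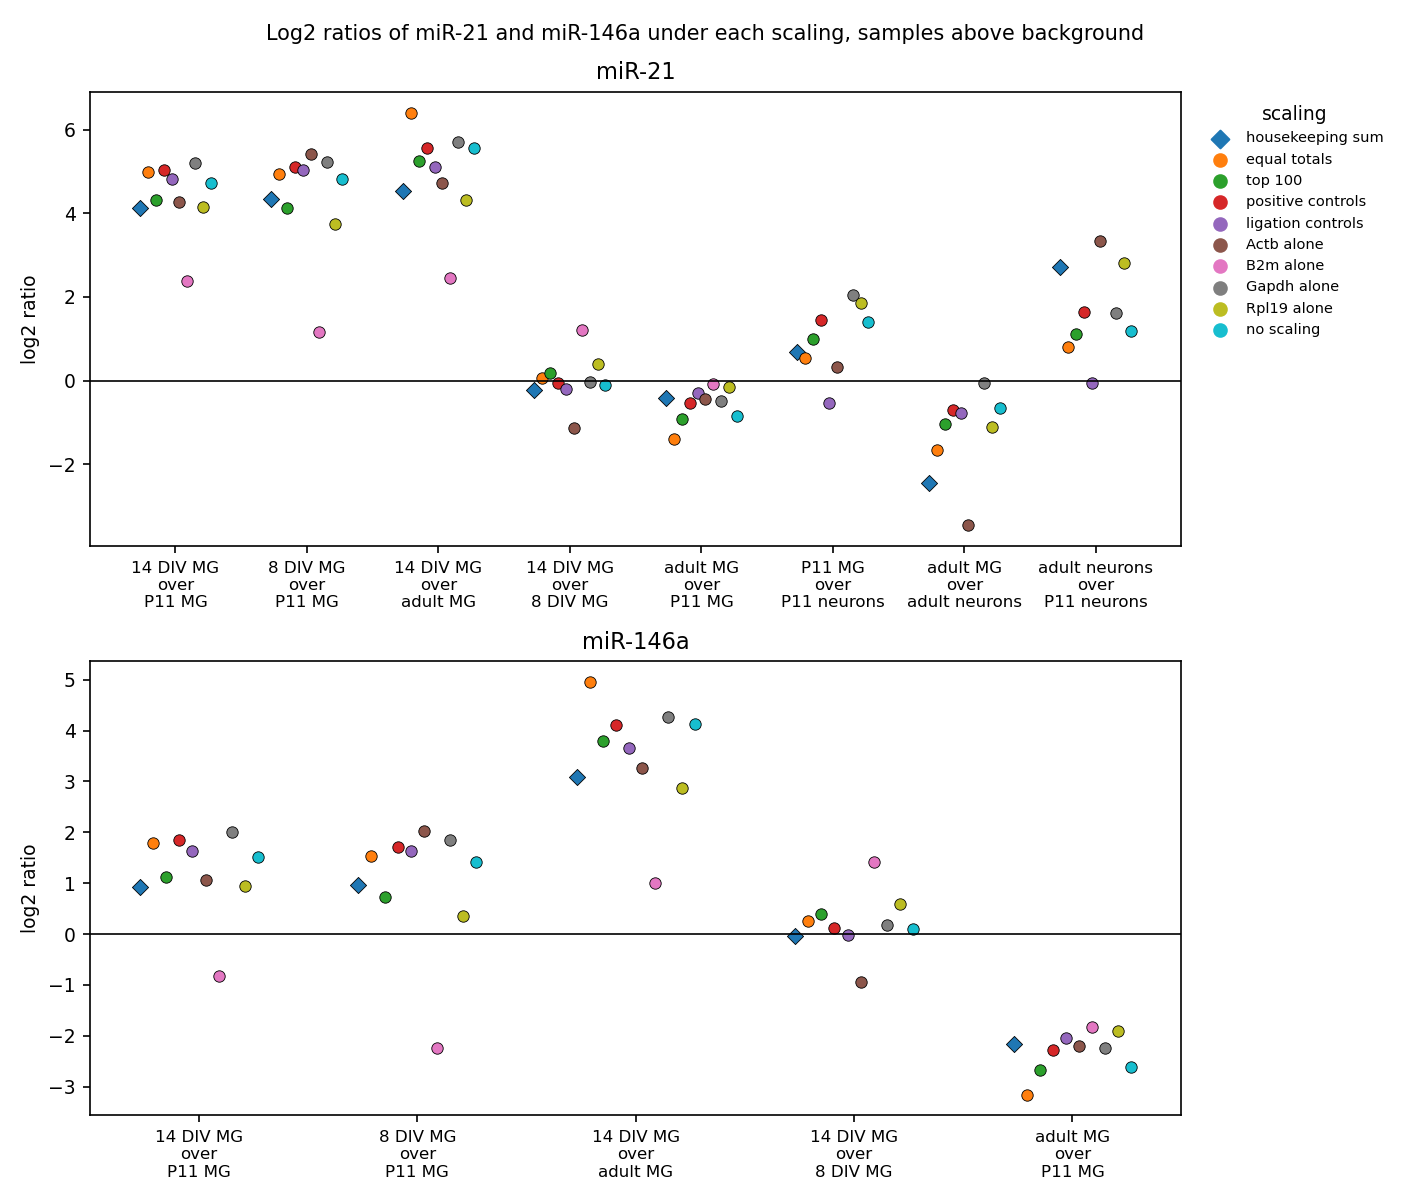
Log2 ratios (y axis) of miR-21 and miR-146a in the pairs where both samples were above background, 1 point per scaling, with the housekeeping sum as a diamond. The points of miR-21 for cultures over fresh MG are all above 1, those of miR-146a for adult over P11 MG all below -1, and B2m alone puts miR-146a in culture below P11 MG.

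miR-146b, of the same seed, did not share the course of miR-146a. It had 105 raw counts in 14 DIV MG, 121 in 8 DIV MG, 87 in adult MG and 88 in P11 MG, against 50 in adult neurons and 83 in P11 neurons. It was above background in 3 samples, both cultures and adult MG, with 39.7 normalized counts (30.4 to 50.6) in 14 DIV MG and 48.4 (31.1 to 68.7) in adult MG, whose intervals overlap. At 20 of 22 identical positions, the files do not show how far each probe reads the other miRNA.

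The leukocyte and microglia miRNAs did not move as 1 group in the fresh samples. miR-142-3p had 73 raw counts in adult MG, with 205 in P11 MG, against 61 in adult neurons and 56 in P11 neurons, of which both MG values were above background. Its ratio of adult to P11 MG was 0.302 (0.243 to 0.566), lower in the adult as for miR-146a, with the adult count close to the background of 71.7. In culture it had 192 counts in 14 DIV MG and 312 in 8 DIV MG, and its ratios to P11 MG were 0.723 and 1.29. miR-142-5p, from the other arm of that hairpin, had 226 raw counts in adult MG, with 259 in P11 MG, against 191 in adult neurons and 244 in P11 neurons. Its normalized count in adult MG was 1.22 times that in P11 MG (0.891 to 1.67), an interval that includes equal counts. MG had 0.340 of the neuron level of miR-142-5p in the adult and 0.635 at P11. miR-150, above background in the fresh MG samples alone, was 2.11-fold higher in adult than in P11 MG (1.24 to 3.24). Its P11 MG count, 119, was close to the background of 106. Over the whole list 3 of 5 were above background in 14 DIV MG, 2 in 8 DIV MG, 3 in adult MG, 3 in P11 MG and 1 in each neuron sample. The share of all mouse probes above it lay between 22.8% (P11 neurons) and 32.9% (8 DIV MG). The summed raw counts were 470 to 645 in the MG samples and 341 to 385 in the neurons. miR-155 was at 1 count in all 6 samples, below the average negative control of each (23.9 to 50.4 counts). Its reading therefore does not show such cells to be absent, though it is counted in the 5. miR-223 was above background in 14 DIV MG alone, with 158 counts. The part of leukocytes and microglia in the levels of miR-146a was not tested.

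miR-221 and miR-222 were both above background in culture alone. miR-221 had 620 raw counts in 14 DIV MG and 681 in 8 DIV MG, against 69 in adult MG, 45 in P11 MG, 10 in adult neurons and 20 in P11 neurons. miR-222 had 149 and 100 counts in 14 DIV and 8 DIV MG, against 28 in adult MG, 21 in P11 MG, 8 in adult neurons and 17 in P11 neurons. For each of them both cultures lay above all 4 fresh samples, which did not pass background. The fresh counts among themselves are therefore not ordered, and no ratio between fresh samples is given.

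Set against the background of the fresh sample, miR-221 was at least 7.16-fold higher in 14 DIV MG and at least 8.43-fold higher in 8 DIV MG than in P11 MG. Against adult MG the bound for 14 DIV MG was 8.84-fold. With B2m alone the bound for 8 DIV over P11 MG fell below 1 and gave no fold, and those for 14 DIV MG were 2.14 over P11 MG and 2.09 over adult MG. For miR-222 the bounds on the log2 ratio were 0.59 for 14 DIV MG over P11 MG and 0.89 over adult MG, both short of 2-fold. This depends on the scaling, since the bound over adult MG passed 2-fold under 7 of the 9 others (up to 6.76-fold) and that over P11 MG under 5 (up to 3.18-fold). For 8 DIV MG over P11 MG no fold could be given. The negative controls of P11 MG were the highest of the 6 samples, so that its background allows the least for low counts.

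The pair was not read in a constant ratio in the cultures. miR-221 had 292 normalized counts in 14 DIV MG and 344 in 8 DIV MG, a ratio of 0.849 (0.721 to 0.999) that ran from 0.448 to 2.31 over the 10 scalings. miR-222 had 61.3 in 14 DIV MG and 34.1 in 8 DIV MG, a ratio of 1.80 (1.10 to 3.06), which ran from 0.949 with Actb alone to 4.89 with B2m alone. The order of the cultures is thus not settled for either. The count ratio of miR-221 to miR-222 was 4.76 (3.63 to 6.33) in 14 DIV MG and 10.1 (6.95 to 15.4) in 8 DIV MG, 2.12 times apart with intervals of counting error that do not overlap. miR-222 lay 1.42 times above background in 8 DIV MG, so its value there also rests on the mean of 8 negative controls, whose error is not in the interval. Of 208 probes 6.25% were at least 2-fold higher in 14 DIV than in 8 DIV MG and 22.1% lower, and none of the 4 miRNAs was in either group.

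Counted over the 4, miR-21 and miR-221 were at least 2-fold higher in 14 DIV MG and in 8 DIV MG than in P11 MG, and 0 of 4 were lower. Of all probes tested 13.4% were higher and 36.1% lower at 14 DIV, and 12.8% higher and 20.9% lower at 8 DIV. Against adult MG 3 of 4 were higher in 14 DIV MG, and 10.9% of all probes were higher and 49.8% lower. The median log2 ratio of the 4, bounds included, was 1.88, 2.02 and 3.12 in these comparisons, and that of all probes -0.83, -0.46 and -1.04. These comparisons share their samples and were known when the 4 were picked, so their likeness is no support. For adult MG over P11 MG 2 of 4 could be compared and 1, miR-146a, was lower, while 11.2% of all probes were lower and 24.6% higher. For adult MG over adult neurons 2 of 4 were above background in either sample and 1, miR-21, was lower, a share near the 51.8% of all probes, and this call was lost under the 4 scalings named above.

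Of 9 other miRNAs known from inflammation and injury, fixed as a list for this work, 7 were above background in each culture, 6 in adult MG, 3 in P11 MG, 3 in adult neurons and 2 in P11 neurons. Of all mouse probes between 22.8% (P11 neurons) and 32.9% (8 DIV MG) were above it in a sample. The list includes miR-155, at 1 count in all 6 samples. Of the 9, 7 were above background in either sample when 14 DIV or 8 DIV MG was set against P11 MG. For 14 DIV MG 3 of these 7 were at least 2-fold higher than in P11 MG and 0 lower, and for 8 DIV MG 4 of 7 and 0. The shares of all probes above background in either sample were 13.4% and 12.8% higher and 36.1% and 20.9% lower. For 14 DIV MG over adult MG 8 were above background in either sample. Of these 8, 2 were higher, miR-34a and miR-24, and 1 lower, miR-203, by at least 5.18-fold. Of all probes 10.9% were higher and 49.8% lower there. For 14 DIV over 8 DIV MG, with 8 above background in either, 1 was higher, miR-223, and 3 were lower, miR-132, miR-27a and miR-203. The shares of all probes in that pair were 6.25% higher and 22.1% lower. miR-34a, a target of p53, had 751 raw counts in 14 DIV MG, 642 in 8 DIV MG, 99 in adult MG and 74 in P11 MG, the last at background, and was at least 8.73-fold and 7.92-fold higher in 14 DIV and 8 DIV MG than in P11 MG. miR-24 was 7.65-fold higher in 14 DIV MG (5.29 to 10.0) and 6.65-fold in 8 DIV MG (4.55 to 8.80) than in P11 MG. For miR-27a, of the same cluster, these folds were 2.17 (1.93 to 2.44) and 4.64 (4.18 to 5.15). miR-132 was 1.90-fold higher in 14 DIV MG (1.23 to 2.84) and 8.67-fold in 8 DIV MG (6.08 to 12.0) than in P11 MG. The P11 MG counts of miR-24 and miR-132, 118 and 122, were close to the background of 106.

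miRNAs of mesenchymal cells also appeared in culture, beside miR-21, miR-221 and miR-222. Of 7 on the list 5 were above background in 14 DIV MG and 4 in 8 DIV MG, against 0 in adult MG, 0 in P11 MG and 1 in each neuron sample. Of all mouse probes 32.2% and 32.9% were above it in 14 DIV and 8 DIV MG, 30.2% in adult MG and 26.3% in P11 MG. miR-145 had 9100 raw counts in 14 DIV MG and 788 in 8 DIV MG, miR-199a-3p had 3213 in 14 DIV MG and 1509 in 8 DIV MG, and miR-143 had 3167 and 445 in the same order. The summed normalized counts were 8591 in 14 DIV MG and 1786 in 8 DIV MG, a step that miR-21, with its ratio of 0.855, did not share. The sums were 52.8 in adult MG and 26.7 in P11 MG. Their part in the rise over fresh MG was not tested. Endothelial miR-126-3p went the other way, with 66 raw counts in 14 DIV MG and 83 in 8 DIV MG, against 208 in adult MG and 360 in P11 MG. miR-211, known from pigmented epithelium, had 109 in 14 DIV MG and 100 in 8 DIV MG, against 329 in adult MG and 114 in P11 MG. By far its highest counts were in the tdTomato- fractions, with 3772 in adult neurons and 2680 in P11 neurons. Which cells held it there was not tested.

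**Figure D4:**
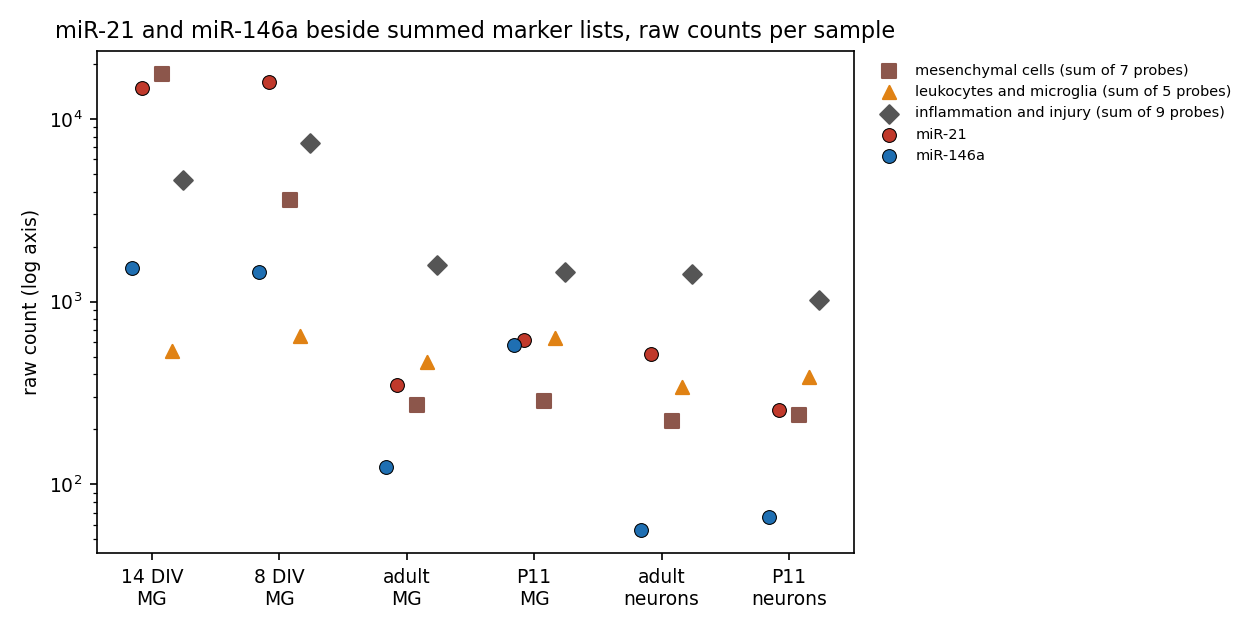
Raw counts (log axis) of miR-21 and miR-146a in each sample beside the summed raw counts of 3 marker lists. miR-21 was alike in both cultures, at 14782 and 15886, while the mesenchymal sum was 17709 in 14 DIV MG and 3590 in 8 DIV MG.

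The probes whose course was most like that of each miRNA were sought among those above background in at least 3 samples, by the root mean square difference of log2 normalized counts over the 6 samples, each profile less its own mean. For miR-21 these were miR-34a (0.92), miR-24 (0.99) and miR-145 (1.15), and for miR-146a miR-28 (1.07), miR-34a (1.11) and miR-24 (1.11). For miR-221 they were miR-34a (0.33), miR-24 (0.46) and miR-22 (0.82), with 4 of the 6 values of miR-221 set to background, and miR-34a set to it in 3 of the same samples, so that much of this likeness too is of background levels. For miR-222 they were miR-376a (0.35), miR-193b (0.36) and miR-146b (0.37), where again 4 of 6 values were set to background, as were 3 of those of each neighbour, so that this likeness is mostly one of background levels. In the likeness to miR-21 and miR-146a some values were also set to background. miR-34a was above it in 3 of 6 samples, miR-145 and miR-146a itself in 4, and miR-24 and miR-28 in 5. The points share the library, the scaling and the background of each sample, and the distances are a description over 6 pools.

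**Figure D5:**
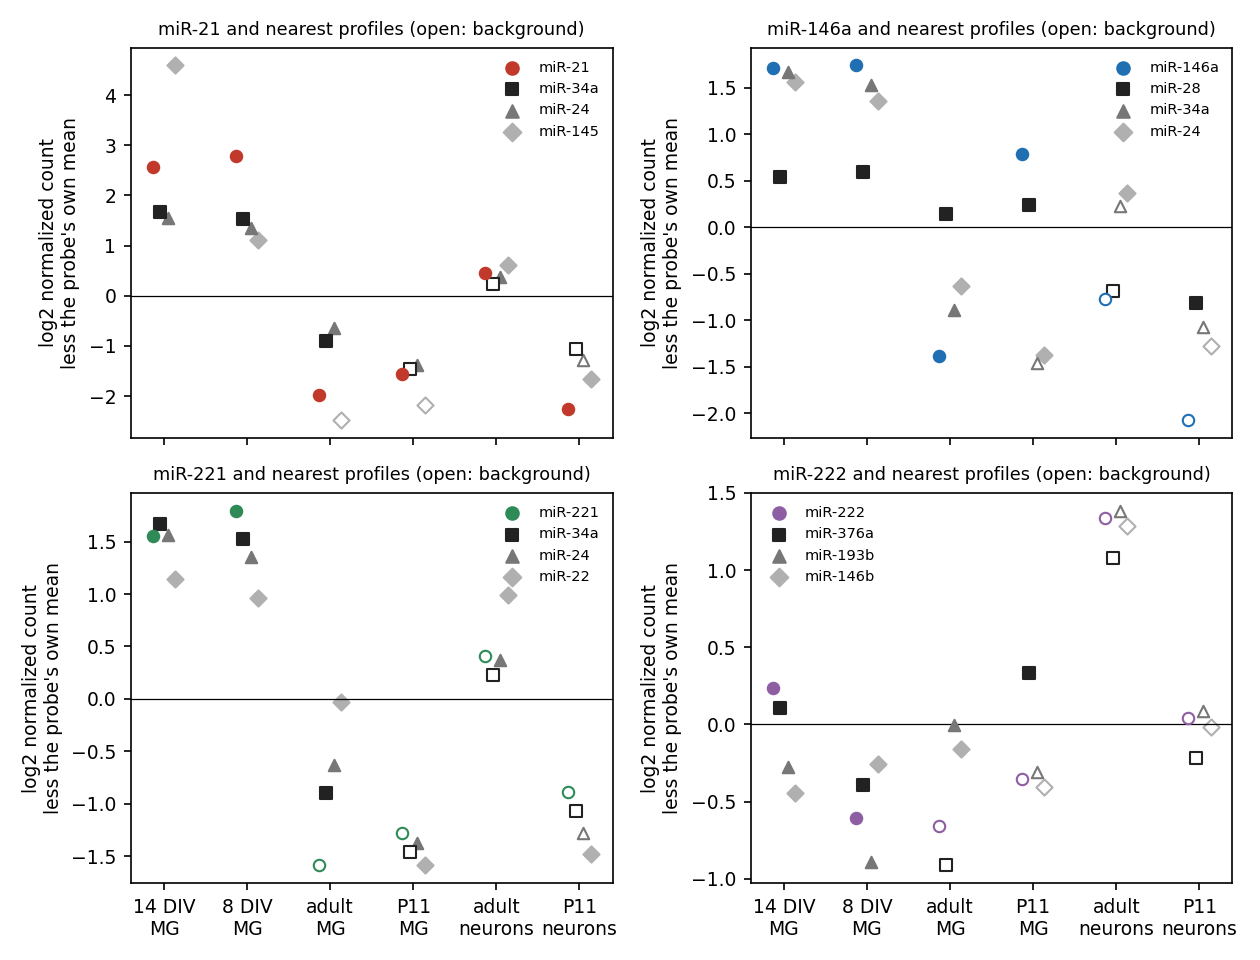
Log2 normalized counts less each probe's own mean (y axis) in the 6 samples for each of the 4 miRNAs and its 3 nearest probes; open symbols are values set to background. miR-34a and miR-24 follow miR-221 within 0.33 and 0.46 (root mean square, log2), but the profiles of miR-221 and miR-222 are open in 4 of 6 samples and that of miR-34a in 3.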

How the data were processed

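NanoString nCounter chemistry, which ligates each mature miRNA to a tag and counts barcoded probes bound to it, was applied to RNA of 6 pooled samples. The deposited raw table holds counts per probe, left unnormalized by the authors. The deposited value table holds normalized counts, made by the authors in nSolver with the negative and positive controls and 4 housekeeping mRNAs in 2 data sets, and read here as a score. It repeats the fresh MG samples in both. Its 32 values of the 4 miRNAs match, within 3 counts, the raw counts after subtraction of the average negative control and scaling. Values were therefore rebuilt from the raw counts, so that all 6 samples stand on 1 scale.

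Intervals of counts are exact Poisson and those of shares exact binomial (95%). Ratio intervals set one sample's lower Poisson limit against the upper limit of the comparison sample, and so are mostly wider than 95%. A lower limit under background was set to it, which cuts the interval short for counts close to background. This applies to miR-142-3p and miR-150 in adult over P11 MG, and to miR-24 and miR-132 in culture over P11 MG. The error of the controls and the spread between animals are not in them. The miRNAs, lists and comparisons were chosen with earlier results of these data known. Those named are the 4, the 3 nearest profiles of each and, of the marker and injury lists, the 2 to 4 members with the highest raw counts. The MG and neuron lists are given as counts and sums. miR-1928, miR-155 and miR-203 were named after their values were seen.

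Alternatives were 9 other scalings (positive controls, positive ligation controls, equal totals, the 100 highest miRNAs by geometric mean, each housekeeping mRNA alone, none), the deposited values, background at 3 SD or at the highest negative control, no subtraction and a fold of 3. B2m alone gives no value for neurons, where it was below background. The code was tested on simulated counts. The software was matplotlib 3.10.9, scipy 1.17.1, numpy 2.4.6 and pandas 2.3.3 under Python 3.11.15.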

Additional observations from a re-analysis of the deposited data

Results flagged for a closer look

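miR-21 moved in opposite directions with age in the 2 fractions: its log2 ratio of adult to P11 was -0.42 in MG and 2.72 in neurons. By the same 4 values, its log2 ratio of MG to neurons was -2.45 in adults and 0.69 at P11. With 1 pool per condition this difference was not tested. Both directions remained opposite under 8 of the 9 scalings that gave a value. With the ligation controls, whose scale factor was highest in P11 neurons, the adult to P11 ratios were -0.29 in MG and -0.07 in neurons, and the MG to neuron ratios -0.77 in adults and -0.55 at P11.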

How the results depend on the processing

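The 21 ratios of the 4 miRNAs that gave a fold were computed again under the alternatives, which gave 244 values, of which 94 lay within the counting interval (for a bound, that of the detected count). In 20 the direction was the opposite, 16 of them for 14 over 8 DIV MG. Of these 20, 1 concerned a ratio of at least 2-fold: miR-21 in adult over P11 neurons, at -0.066 (log2) with the ligation controls. The number of the 4 at least 2-fold higher, 2 for 8 DIV MG over P11 MG, was 1 with B2m alone, where 1 was lower, and 3 with equal totals, the positive controls, the ligation controls, Actb alone, Gapdh alone and no scaling. For 14 DIV over P11 MG it was 2, 3 with the top 100 miRNAs or Actb alone, and 4 with no scaling, equal totals, Gapdh alone and both kinds of controls. For 14 over 8 DIV MG it was 0, and 1 with the top 100 miRNAs, equal totals, Gapdh alone, Rpl19 alone or the positive controls, and 4 with B2m alone, while 2 were lower with Actb alone. For adult MG over adult neurons 1 was lower and 0 higher, and 0 lower and 1 higher with the positive controls, the ligation controls, Gapdh alone and no scaling. For P11 MG over P11 neurons 1 was higher, and 2 without scaling and with Rpl19 alone, Gapdh alone or the positive controls. For adult over P11 MG 1 was lower, and 2 with equal totals. For adult over P11 neurons 1 was higher, and 0 with equal totals and the ligation controls. For 14 DIV over adult MG it was 3, and 4 under 7 of the scalings. The cause of these shifts is the scaling, which moves every ratio of a pair of samples alike. The number of values above background was 14 of 24, also at 3 SD, and 15 against the highest negative control. The value added there was miR-221 in adult MG, with 69 counts against 62, so that miR-221 was then not limited to culture. No paired analysis was possible because each condition is 1 pooled sample, and for the same reason no replicate could be left out. Counts near background limit miR-222 and the fresh values of miR-221.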
